A study of Mus musculus with 40 samples.

Results

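The comparison set 2 mouse melanoma cell lines against each other by their transcriptomes, B16-F10 and YUMM1.7. It took the 2 libraries of B16-F10 control cells (B16-F10 Ctrl) and the 2 libraries of YUMM1.7 cells with an empty vector (YUMM1.7 EV), chosen by their labels, which are 4 of the 40 libraries of the series. The series as a whole asked how the state of the circadian transcription factor Bmal1 alters melanoma cells, and all 4 libraries here came from the control state for Bmal1 (gene Arntl) of their line. B16-F10 is a long-established, pigmented line of spontaneous melanoma from a C57BL/6 mouse. The control cells sequenced here were 1 clone received from another laboratory together with a Bmal1 knockout clone, and the labels name no vector for them. YUMM1.7 was derived from a transgenic mouse melanoma with oncogenic mutant Braf and without Cdkn2a (Cdkn2a-/-), and the cells carried an empty vector by their label, the methods describing the vector for other lines. By the labels the empty vector was thus on the YUMM1.7 side only, so that line, vector, clone, laboratory of origin and sequencing depth cannot be told apart in this comparison. Both lines were grown in the same medium with 10% serum.

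For that reason 2 more sets of libraries were set beside the 4. The first held other libraries of the same lines, namely B16-F10 Bmal1 KO (n = 2), YUMM1.7 overexpressing wild-type Bmal1 (WT-Bmal1, n = 2) and YUMM1.7 overexpressing Bmal1 without its basic helix-loop-helix domain (dHLH-Bmal1, n = 2), none of which enters the main comparison. The second was YUMM2.1 EV (n = 2), a sister line with mutant Braf, Cdkn2a+/- and 1 stabilised beta-catenin allele, which carried an empty vector by its label, as YUMM1.7 EV did. The 2 YUMM2.1 EV libraries differed from each other at several genes (Sox9, 19.2 and 91.1 CPM), and the label of replicate 2 is in doubt, so values without it are given where they matter.

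Melanocytes arise from the neural crest, and their identity rests on the transcription factor Mitf, which with Sox10 and Pax3 switches on the enzymes, structural proteins and pumps of the melanosome, the organelle in which melanin is made. Melanoma cells can lose this programme and take up an undifferentiated or mesenchymal-like state, marked by low Mitf and Sox10 and by high Axl, AP-1 factors, collagens and other matrix genes. Signalling from mutant Braf through the MAPK pathway induces a set of its own feedback inhibitors, and their transcripts are used as a readout of the pathway. The transcripts were counted at their 3′ ends, so that a level in CPM (counts scaled to the same library total) does not grow with transcript length. Levels of different genes compare only roughly, since how multiply aligned reads were shared is not known.

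The B16-F10 Ctrl libraries held 19348395 and 19367158 counts and the YUMM1.7 EV libraries 11035156 and 10440447 counts, and the 8 libraries beside them held between 9097676 and 22970049. A count of 3, the level at or below which a gene was treated as off in a library, was worth 0.155 CPM in B16-F10 Ctrl and up to 0.287 CPM in YUMM1.7 EV, so that the limit was lower on the B16-F10 side. The replicates of either group differed by more than sampling noise, and the study calls its duplicates of both lines biological replicates without saying how the cultures were separated, so the p-values measure the spread between these libraries. Among markers of other cell types, the 7 lymphocyte markers were at 0 in all 4 libraries and the 6 keratinocyte markers summed to at most 6.09 CPM. The 8 macrophage markers summed to 3.73 and 8.6 CPM in B16-F10 Ctrl and to 4.13 and 3.19 CPM in YUMM1.7 EV. The 7 fibroblast markers summed to 0.49 and 0.85 CPM in B16-F10 Ctrl against 125 and 117 CPM in YUMM1.7 EV, most of it from Pdgfra, and the 5 endothelial markers to 5.2 and 4.8 against 12.5 and 15.2 CPM. Many genes named below overlap another annotated gene, among them Dct, Pmel, Mitf, Prrx1, Zeb1, Zeb2, Ctnnb1 and Prkcb. The strand setting of the counting is not given in the sources used here, so that reads of a gene and an overlapping partner cannot be told apart and these counts are uncertain to that extent.

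Of 14927 genes tested, 9562 differed between the lines at an adjusted p under 0.05 (64.1%, edgeR quasi-likelihood test with Benjamini-Hochberg adjustment), 4778 of them higher in B16-F10 (32.0%) and 4784 lower (32.0%). With a 2-fold minimum the count was 5031 (33.7%), of which 2426 were higher (16.3%) and 2605 lower (17.5%). A difference of at least 4-fold was called for 2818 genes and of at least 16-fold for 1583. The median log2 fold change of B16-F10 Ctrl over YUMM1.7 EV across all genes tested was 0.01. With that many genes called, each list is read against these shares and by the size of its differences.

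**Figure D1:**
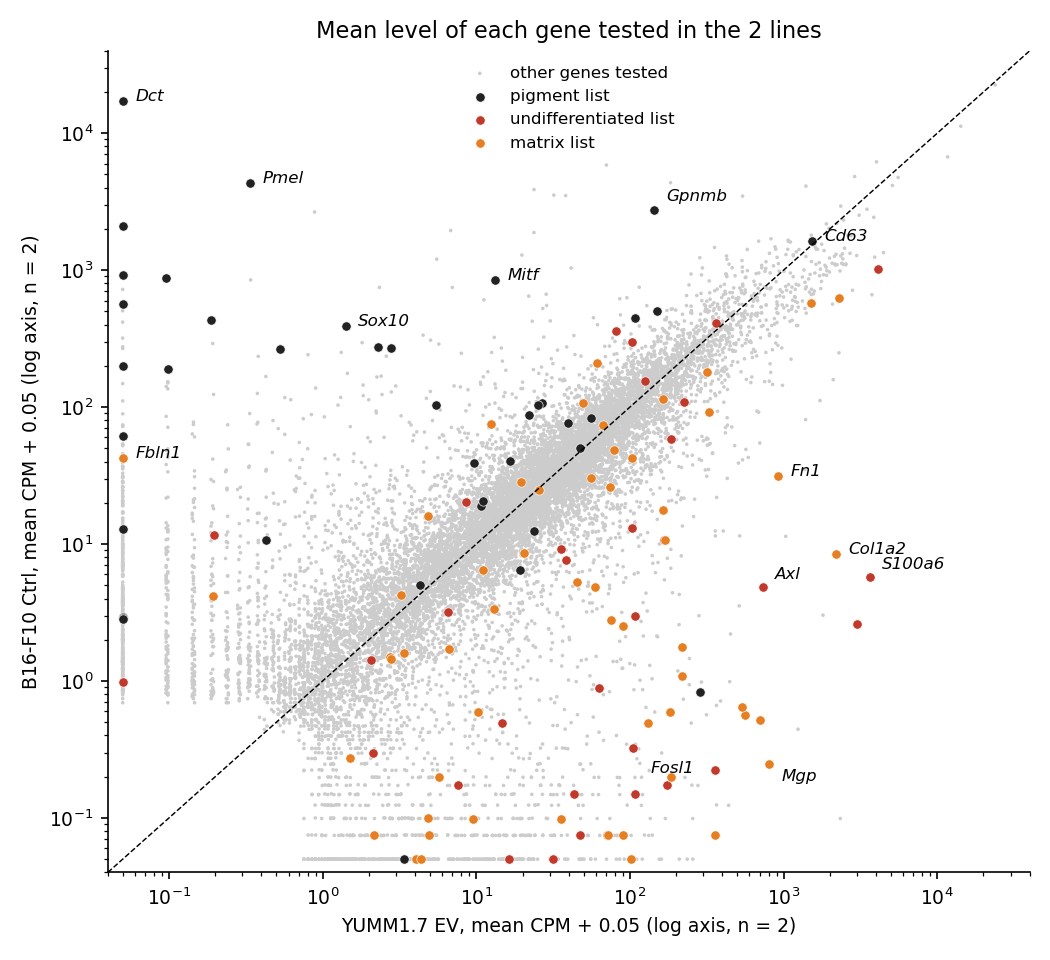
Mean level of every gene tested in YUMM1.7 EV (x axis) and B16-F10 Ctrl (y axis), in CPM plus 0.05 on log axes, n = 2 libraries each, with the pigment, undifferentiated and matrix lists in colour and equality as a dashed line. Pigment genes such as Dct and Pmel sit far above the line, Cd63 lies on it, and matrix and undifferentiated genes such as Col1a2, S100a6 and Axl lie far below it.

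Genes of the pigment cell were far higher in B16-F10. Of the 42 genes in the pigment list, 40 could be tested, and 33 were higher in B16-F10 and 4 lower (at 2-fold or more, 29 and 3). Their median log2 fold change was 4.53, or 3.30 with the genes at 0 in YUMM1.7 held at their lower bound. Of the 40, 13 had at most 3 counts in each YUMM1.7 EV library and 1 at most 3 in each B16-F10 Ctrl library. The direction of at least these genes was fixed by the low-count filter. Mitf, the master regulator of melanocytes, stood at 889 and 815 CPM in B16-F10 Ctrl and at 13 and 13.5 in YUMM1.7 EV. That was a log2 fold change of 5.99 ± 0.10 (SE, n = 2 against 2, adjusted p = 1.1e-12), a 63.6-fold difference, but YUMM1.7 was not without Mitf transcripts. Each SE here was derived from the test statistic and is too small where a line has few counts. That holds for Sox10, Pmel, Prrx1, Fosl1, Epha3 and Aqp1 below, whose fold changes are less precise than their SE. Sox10, the neural crest factor upstream of Mitf, stood at 378 and 398 CPM against 1.56 and 1.16 (log2 fold change 8.13 ± 0.13, adjusted p = 1e-12). The levels of Sox10 in the 2 lines were thus further apart than those of Mitf. Pax3, their partner, was present in both lines, at 449.7 and 452 CPM in B16-F10 Ctrl and 106 and 109 in YUMM1.7 EV (4.16-fold, adjusted p = 2.49e-10). Tfap2a was 1.92-fold higher in B16-F10. Its paralogue Tfap2b went the opposite way, with 1.47 and 0.1 CPM in B16-F10 Ctrl and 293 and 281 in YUMM1.7 EV (log2 fold change -8.50 ± 0.27, adjusted p = 1.53e-10). Lef1, a factor of the Wnt pathway, had no count in either B16-F10 Ctrl library and 3.4 and 3.29 CPM in YUMM1.7 EV, at least 22.28-fold lower in B16-F10 against a floor of 3 counts per library.

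The enzymes of melanin synthesis were found in B16-F10 with at most 1 count of any in YUMM1.7 EV. Dct (dopachrome tautomerase) was the second most abundant transcript of B16-F10 Ctrl, at 16531 and 17923 CPM, and had not a single count in either YUMM1.7 EV library. Against 3 counts per library, the level of Dct was at least 59360-fold higher in B16-F10. Tyrp1 (tyrosinase-related protein 1) stood at 2051 and 2118 CPM against no count, at least 7184-fold higher. Tyr (tyrosinase), the rate-limiting enzyme, was much less abundant than either, at 198 and 178 CPM, and 1 count was found in the YUMM1.7 EV libraries together (ratio 3999, 95% Poisson interval 717.7 to 157900, counting error only). All 3 enzymes had at least 10 counts in each B16-F10 Ctrl library and at most 3 in each YUMM1.7 EV library. That held for 683 of the 14927 genes tested (4.58%).

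Structural and membrane proteins of the melanosome followed. Pmel, which forms the fibrils on which melanin is laid down, stood at 4248 and 4426 CPM in B16-F10 Ctrl and 0.0918 and 0.484 CPM in YUMM1.7 EV (log2 fold change 13.85 ± 0.18, adjusted p = 4.79e-13). Mlana (Melan-A) was at 845 and 1012 CPM against no count, at least 3200-fold higher. Tspan10 was at 193 and 207 CPM and Gpr143, the ocular albinism receptor, at 12.8 and 12.8 CPM, with no count of either in YUMM1.7 EV. Gpnmb, a melanosomal and lysosomal glycoprotein, was present in YUMM1.7 EV too, at 146 and 139 CPM against 2756 and 2787 (19.3-fold, adjusted p = 1.85e-12). Cd63, a tetraspanin shared with endosomes of most cells, was at 1562 and 1721 CPM in B16-F10 Ctrl, at 1562 and 1479 CPM in YUMM1.7 EV, and did not pass the test (log2 fold change 0.10 ± 0.07).

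Of the 8 pumps and channels, 7 were higher in B16-F10 and none lower. Slc45a2 (571 and 554 CPM), Trpm1 (60.8 and 61.2 CPM), Oca2 (2.3 and 3.4 CPM) and Slc24a4 (3.24 and 2.35 CPM) had no count in YUMM1.7 EV, and Slc24a5, a cation exchanger, was at 823 and 917 CPM against 0.0918 and 0 CPM. Atp7a, the copper pump that loads tyrosinase but works in many cells, was 3.94-fold higher in B16-F10. The cystine transporter Slc7a11 stood at 55.7 and 44.1 CPM in B16-F10 Ctrl, at 47.9 and 47.1 CPM in YUMM1.7 EV, and did not pass the test. Of 14 genes for the making and transport of melanosomes, 11 were higher in B16-F10 and 2 lower. The complex that carries melanosomes along actin was among the higher ones. Mlph (melanophilin) was 97.1-fold higher, at 273 and 265 CPM against 2.94 and 2.52, and its partner Rab27a was at 114 and 92.8 CPM against 6.61 and 4.16. Myo5a, the motor of the same complex, was 3.33-fold higher, and Rab38 was at 433 and 439 CPM against 0.276 and 0. The general biogenesis genes Hps1 and Hps6 were the 2 lower ones, at 1.95-fold and 3-fold.

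Of the receptors that melanocytes use, Mc1r, the melanocortin receptor, stood at 271 and 279 CPM in B16-F10 Ctrl and 2.94 and 1.55 CPM in YUMM1.7 EV (120.0-fold, adjusted p = 5.58e-12). Erbb3 was at 11.2 and 10.3 CPM against 0.367 and 0.387. Kit and Ednrb, which normal melanoblasts need, had no count in any of the 4 libraries, and were not detectable in either line at this depth. The plot of these genes by library shows that replicates lay close together beside the distance between the lines.

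**Figure D2:**
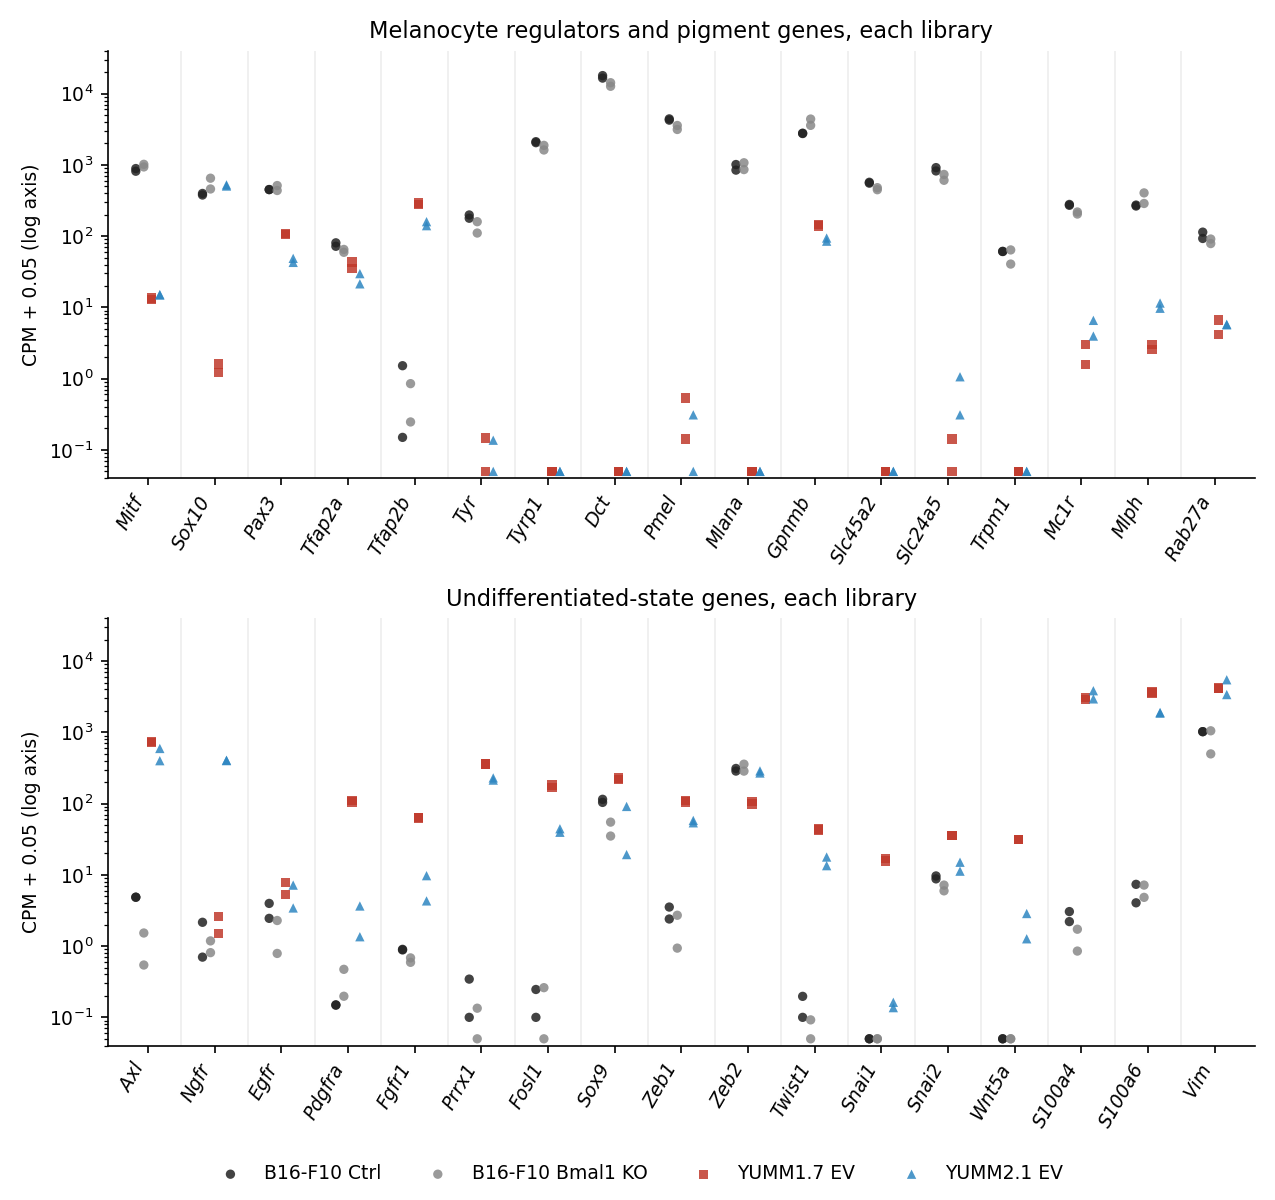
Level of each gene in each library, as CPM plus 0.05 on a log axis, for melanocyte regulators and pigment genes (top) and undifferentiated-state genes (bottom), with 2 points for each of B16-F10 Ctrl, B16-F10 Bmal1 KO, YUMM1.7 EV and YUMM2.1 EV. Dct, Tyrp1 and Mlana have no count in YUMM1.7 EV and YUMM2.1 EV, Sox10 is high in B16-F10 and YUMM2.1 EV and low in YUMM1.7 EV, and Axl, Prrx1, Fosl1 and S100a4 are high in both YUMM lines.

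Mitf binds E-boxes with the letters CATGTG or CACGTG. The 250 bases before the gene start are shown for 4 pigment genes with at most 1 count in YUMM1.7 EV, since these hold such letters, from RefSeq on GRCm38.p6, 5′ to 3′ on the strand of the gene, with CATGTG or its reverse complement CACATG in capitals. The windows are chr7:87493513-87493762 (minus strand), chr4:80833963-80834212 (plus), chr14:118052247-118052496 (minus) and chr7:64153585-64153834 (plus).
Tyr: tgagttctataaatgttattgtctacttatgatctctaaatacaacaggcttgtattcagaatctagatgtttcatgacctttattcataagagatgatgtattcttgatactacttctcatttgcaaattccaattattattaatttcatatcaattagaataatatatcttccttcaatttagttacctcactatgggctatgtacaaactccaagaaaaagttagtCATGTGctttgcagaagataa
Tyrp1: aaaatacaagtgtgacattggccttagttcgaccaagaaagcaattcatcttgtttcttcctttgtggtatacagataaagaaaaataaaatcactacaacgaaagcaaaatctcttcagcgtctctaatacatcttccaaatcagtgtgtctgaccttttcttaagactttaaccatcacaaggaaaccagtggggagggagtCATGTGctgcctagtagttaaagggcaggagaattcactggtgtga
Dct: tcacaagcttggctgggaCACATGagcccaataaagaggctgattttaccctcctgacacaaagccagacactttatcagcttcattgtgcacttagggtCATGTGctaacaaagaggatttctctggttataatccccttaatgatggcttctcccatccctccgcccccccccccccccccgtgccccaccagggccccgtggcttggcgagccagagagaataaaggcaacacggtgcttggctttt
Trpm1: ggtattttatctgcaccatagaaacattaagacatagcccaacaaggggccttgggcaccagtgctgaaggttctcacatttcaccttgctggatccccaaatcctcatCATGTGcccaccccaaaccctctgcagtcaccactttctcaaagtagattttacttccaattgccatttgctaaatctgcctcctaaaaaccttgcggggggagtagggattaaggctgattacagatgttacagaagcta

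In Tyr the letters began 21 bases before the start and in Tyrp1 46 bases before it, Dct held them at 150 and 232 bases, and Trpm1 at 141 bases. Counted on either strand, CATGTG stood in at least 1 window of 10 of the 32 pigment genes with a RefSeq promoter (31.2%) and of 3742 of all 27025 genes of the table (13.8%), in which a gene can have several starts (32851 windows in all). CACGTG, which is its own reverse complement and does not overlap CATGTG, stood in 9 of the 32 (28.1%) against 1854 of all genes (6.86%), among them Mlph, Hps3 and Atp7a, and Trpm1 in a window other than the one shown. Hps1 and Slc7a11 were among the 10 genes with CATGTG and Lef1 among the 9 with CACGTG, although none of these was called higher in B16-F10. TGANTCA, the AP-1 letters, stood in 1 of the 32 (3.12%) against 2113 of all (7.82%). None of the 8 promoters found for the 10 genes named below as transcribed in YUMM1.7 only held any of these motifs. These are letters in a fixed window, and no binding was measured in these libraries.

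The undifferentiated list ran the other way. Of its 35 genes, 32 were tested, 24 were lower in B16-F10, all at 2-fold or more, and 7 were higher, with a median log2 fold change of -3.51 (-4.27 without B16-F10 Ctrl replicate 1). The median was -3.99 with a mean of at least 10 counts, -3.02 with no filter and -3.01 with 1 fit of all 40 libraries. Of the 32, 5 had at most 3 counts in each B16-F10 Ctrl library and 2 at most 3 in each YUMM1.7 EV library. The direction of at least these genes was fixed by the low-count filter. All 12 transcription factors of the list differed, 10 of them lower in B16-F10. Prrx1, a homeobox factor of mesenchymal cells, was at 0.294 and 0.05 CPM in B16-F10 Ctrl and 359 and 360.2 CPM in YUMM1.7 EV (log2 fold change -10.97 ± 0.18, adjusted p = 1.16e-12). Fosl1, an AP-1 subunit, was at 0.196 and 0.05 CPM against 181 and 169 (log2 fold change -10.39 ± 0.19). The drivers of epithelial-mesenchymal transition did not move as a block. Snai1 had no count in B16-F10 Ctrl and 17 and 15.7 CPM in YUMM1.7 EV, Twist1 stood at 0.147 and 0.05 CPM against 44.1 and 42.5, and Zeb1 at 3.48 and 2.35 CPM against 105 and 109. Zeb2 was the reverse of Zeb1, at 311 and 286 CPM in B16-F10 Ctrl and 107 and 99.1 CPM in YUMM1.7 EV (2.86-fold higher, adjusted p = 9.45e-09). Snai2 was 3.94-fold lower in B16-F10. Sox9 was at 115 and 104 CPM against 219 and 228 (2.07-fold lower, adjusted p = 2.04e-07), a call lost when YUMM2.1 EV was added to the fit.

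Receptor tyrosine kinases divided the lines as well. Axl, the receptor most used to mark undifferentiated melanoma, stood at 4.81 and 4.8 CPM in B16-F10 Ctrl and 736 and 724 CPM in YUMM1.7 EV (log2 fold change -7.26 ± 0.10, adjusted p = 4.79e-13). Pdgfra was at 0.0981 and 0.1 CPM against 112 and 105, Fgfr1 at 0.834 and 0.85 against 62.5 and 63.6 and Pdgfrb at 7.65 and 7.45 against 36.5 and 40.6. Met, the hepatocyte growth factor receptor and a target of Mitf, was the exception of the group, at 354 and 359.9 CPM against 76.2 and 85.6 (4.37-fold higher in B16-F10). Egfr was low in both lines, at 3.92 and 2.4 CPM in B16-F10 Ctrl and 5.24 and 7.84 CPM in YUMM1.7 EV. Ngfr, the mark of a neural crest-like state, was at 2.11 and 0.65 CPM in B16-F10 Ctrl, at 2.57 and 1.45 CPM in YUMM1.7 EV, and did not pass the test, while Nes (nestin) was 3.18-fold lower in B16-F10. S100a4 and S100a6, calcium-binding proteins of motile and mesenchymal cells, were among the widest gaps. S100a4 was at 2.16 and 3 CPM against 3086 and 2909.9. S100a6 was at 7.31 and 4 CPM against 3669 and 3580.3. Vim (vimentin) was abundant in both lines and 4.08-fold lower in B16-F10. Wnt5a had no count in B16-F10 Ctrl and 31.5 and 31.1 CPM in YUMM1.7 EV, at least 208.8-fold lower in B16-F10. Cdh1 (E-cadherin) was at 1.08 and 0.8 CPM against no count, and Cdh2 (N-cadherin) at 163 and 149.7 CPM against 127 and 125. With Zeb2, Met, L1cam, Lmo1 and Cd44 these were the 7 genes of the list called higher in B16-F10, and the calls of Cdh2 and Cd44 were lost under some alternatives.

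Genes of the extracellular matrix were mostly lower in B16-F10. Of 58 tested, 47 were lower and 7 higher (41 and 6 at 2-fold or more), with a median log2 fold change of -3.43. Of the 58, 12 had at most 3 counts in each B16-F10 Ctrl library and 2 at most 3 in each YUMM1.7 EV library. The direction of at least these genes was fixed by the low-count filter. The direction was less uniform among the glycoproteins (8 of 13 tested lower, 2 higher) and the cross-linking enzymes (4 of 8 lower, 3 higher). All 15 collagen genes were called lower, 14 of them by 2-fold or more. Col1a2 was at 8.73 and 8.15 CPM in B16-F10 Ctrl and 2173 and 2214 CPM in YUMM1.7 EV (log2 fold change -8.04 ± 0.10, adjusted p = 4.79e-13). Col1a1, whose product joins that of Col1a2 in type I collagen, was low in YUMM1.7 too, at 1.42 and 1.35 CPM against 2.66 and 2.81 (adjusted p = 0.0451, a call lost under most alternatives). The level of Col1a2 in YUMM1.7 EV was therefore not matched by Col1a1. Col3a1 was at 0.981 and 0.2 CPM against 525 and 544, Col18a1 at 0.834 and 0.2 against 571 and 557 and Col4a1, of the basement membrane, at 1.18 and 0.9 against 205 and 228. Col5a2 had no count in B16-F10 Ctrl, and the 3 type VI chains Col6a1, Col6a2 and Col6a3 had 1 count each over its 2 libraries, against 87.9 and 91.8, 74.7 and 68 and 358 and 357 CPM.

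Among the other matrix genes, Fn1 (fibronectin) was at 30.7 and 32.4 CPM against 885 and 944 (29.3-fold lower, adjusted p = 1.53e-12), and Sparc was abundant in both and 2.64-fold lower. Mgp (matrix Gla protein) was at 0.343 and 0.05 CPM against 833 and 784, Bgn (biglycan) at 0.735 and 0.2 against 697 and 699 and Vcan (versican) at 0.637 and 0.25 against 134 and 129. Cspg4, a melanoma-associated proteoglycan, was 27.5-fold lower in B16-F10. Loxl1, a collagen cross-linker, was at 0.196 and 0.1 CPM against 192 and 176, whereas Loxl2 was the reverse at 14.4 and 17.5 against 3.86 and 5.8. Mmp3 (stromelysin) was at 0 and 0.05 CPM against 72.1 and 72.3 and Timp1 at 1.52 and 1.9 against 209.8 and 227. The 7 matrix genes higher in B16-F10 were Loxl2, Plod2, P4ha2, Adamts1, Prelp, Fbln1 and Fbln5. Fbln1, a fibulin, stood at 43.3 and 41.6 CPM in B16-F10 Ctrl with no count in YUMM1.7 EV (at least 146.3-fold higher), and Fbln5 was 5.98-fold higher. Of the 7 fibroblast markers, 4 were tested and all 4 were lower in B16-F10, namely Pdgfra, Dcn (10.7 and 8.32 CPM in YUMM1.7 EV), Dpt (1.29 and 1.16) and Pi16 (0.827 and 1.35). All 4 passed the low-count filter through YUMM1.7 EV alone, so their direction was fixed by it. Lum, Clec3b and Col14a1 were under 1 CPM in all 4 libraries and were not tested, and the part of these markers in the matrix result was not tested.

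Serum response factor (SRF) and its coactivators drive genes of the actin cytoskeleton. All 20 of these genes that were tested were called, 18 lower in B16-F10, with a median log2 fold change of -1.42, and 11 lower and none higher by 2-fold or more. Acta2 (smooth muscle actin) was at 0.196 and 0 CPM in B16-F10 Ctrl and 86 and 85.7 CPM in YUMM1.7 EV. Tpm2 (beta-tropomyosin) had no count in B16-F10 Ctrl and 166 and 155 CPM in YUMM1.7 EV, at least 1068-fold lower in B16-F10. Among the members used by most cells, Myh9 (non-muscle myosin IIA) was 2.85-fold lower at 242 and 232 against 673 and 663 CPM, Vcl (vinculin) 5.18-fold lower and Actb 1.76-fold lower. Tagln and Cnn1, 2 standard targets, were not detected above 3 counts in any of the 4 libraries. Srf itself was 1.4-fold lower in B16-F10, at 54.8 and 64.9 against 86.6 and 79.3 CPM. Its coactivator Mrtfa was 1.96-fold lower and Mrtfb 1.56-fold higher.

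Output genes of the MAPK pathway were mostly lower in B16-F10. Of 21, 16 were lower, all by 2-fold or more, and 4 were higher, with a median log2 fold change of -3.14. All 3 ETS factors were lower. Etv1 was at 6.47 and 5.8 CPM against 145 and 148, Etv4 at 0.147 and 0.7 against 34.3 and 33.1 and Etv5 at 1.27 and 0.65 against 128 and 105. Of the feedback inhibitors, Spry2 was 5.6-fold and Spry4 44-fold lower in B16-F10, Dusp6 2.42-fold, and Dusp5 stood at 0.196 and 0.25 CPM against 30.7 and 28.1. Dusp4 went the other way, at 20.3 and 20.8 CPM against 3.4 and 2.22 (7.2-fold higher, adjusted p = 3.06e-07), as did Spry1 at 5.74 and 3.85 against 1.19 and 1.26 and Phlda1 at 430.1 and 438 against 171 and 173. Ccnd1 (cyclin D1) was at 249 and 249 CPM against 2322 and 2261 (9.3-fold lower). Egr1, an immediate early gene, was at 0.883 and 1.2 against 56.7 and 53.1. Myc was low in both lines, at 6.47 and 4.8 CPM in B16-F10 Ctrl and 4.68 and 5.42 CPM in YUMM1.7 EV, and did not pass the test.

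Genes that are commonly altered in melanoma lay mostly within 2-fold. Of 28 driver genes tested, 12 were higher in B16-F10 and 7 lower, 4 and none of them by 2-fold or more, with a median log2 fold change of 0.23. Braf was 2.06-fold higher in B16-F10, at 80.2 and 70.8 against 37.1 and 35.5 CPM. Cdkn2a was near the limit in both lines, at 1.27 and 0.3 CPM in B16-F10 Ctrl and 0.459 and 0.677 CPM in YUMM1.7 EV, and its neighbour Cdkn2b had no count in any of the 4 libraries. Reads at the 3′ end of Cdkn2a can lie outside a deleted part, so that these values check nothing about its deletion. Mtap, the gene next to that locus, was at 194 and 192 CPM in B16-F10 Ctrl and 185 and 189 CPM in YUMM1.7 EV, with no difference that passed the test, and had no count in either YUMM2.1 EV library. The 3 driver genes of the beta-catenin pathway that differed were all higher in B16-F10. Ctnnb1 (beta-catenin) was at 1078 and 1132 CPM against 428 and 456, Apc at 175 and 169 against 77.9 and 67.4, and Axin2, a target that reads the pathway out, at 12.5 and 8.6 against 0.276 and 0. Akt1 was 1.94-fold higher in B16-F10. Trp53 (p53) was at 31.3 and 21 CPM in B16-F10 Ctrl, at 31.8 and 30.1 CPM in YUMM1.7 EV, and did not pass the test.

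**Figure D3:**
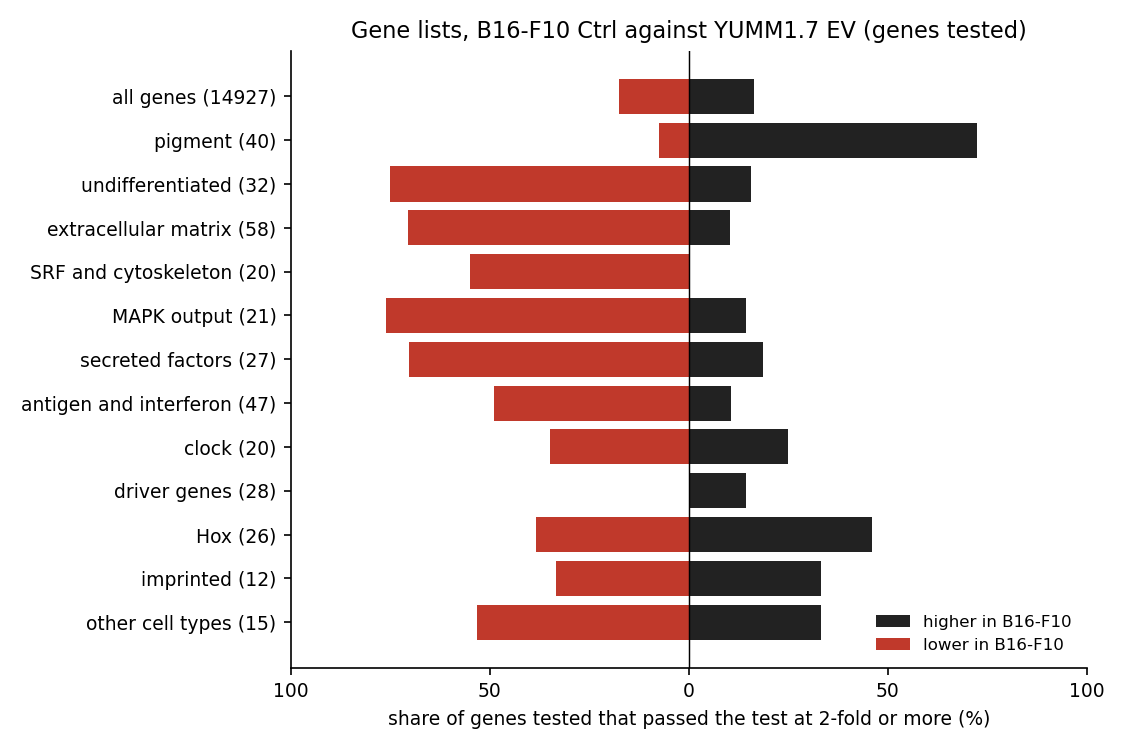
Share of the tested genes of each list, in percent, that passed the test at 2-fold or more and were higher (black, right) or lower (red, left) in B16-F10 Ctrl than in YUMM1.7 EV, with the number of genes tested beside each name. Among all 14927 genes the shares were 16.3% and 17.5%, while the pigment bar runs right and the undifferentiated, matrix, MAPK and secreted bars run left.

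Secreted signals were mostly lower in B16-F10. Of 47 genes for chemokines, cytokines and growth factors, 27 were tested, 20 of them lower in B16-F10 and 6 higher (19 and 5 at 2-fold or more), with a median log2 fold change of -3.61. The other 20 had too few counts, among them Il6, Il1b, Csf2, Csf3 and Cxcl9. Of the 27 tested, 7 had at most 3 counts in each B16-F10 Ctrl library and 1 at most 3 in each YUMM1.7 EV library. The direction of at least these genes was fixed by the low-count filter. Cxcl12, the ligand of Cxcr4, was at 0.049 and 0 CPM in B16-F10 Ctrl and 84.8 and 80.6 CPM in YUMM1.7 EV, and Cx3cl1 (fractalkine) at 0.245 and 0.05 against 80.8 and 84.6. Ccl2, which recruits monocytes, was at 0.049 and 0 against 13.3 and 12. Both ligands of the macrophage receptor Csf1r were lower in B16-F10, Csf1 at 4.85 and 5.05 CPM against 68.7 and 78.4 and Il34 at 0 and 0.4 against 119.9 and 112. Spp1 (osteopontin) stood at 1.08 and 0.25 against 371 and 408, and Kitl, the ligand of Kit, at 1.03 and 0.6 against 123 and 119 while Kit itself was at 0 in both. Growth factors higher in B16-F10 were Vegfa (2.41-fold, 56.2 and 52.2 against 20.9 and 23.7 CPM), Vegfc (9.36-fold) and Tgfb2 (2.83-fold). Pdgfa was 5.86-fold lower.

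Antigen presentation and interferon genes were lower in B16-F10 more often than higher. Of 47 tested, 31 were lower and 8 higher (23 and 5 at 2-fold or more), with a median log2 fold change of -0.87. B2m, the light chain of every class I molecule, was at 146 and 156 CPM against 611 and 615 (4.1-fold lower, adjusted p = 3.27e-10). Of the heavy chains, H2-D1 was 1.74-fold lower and H2-K1 stood at 19.1 and 19 CPM in B16-F10 Ctrl and 14.1 and 13.1 CPM in YUMM1.7 EV. Heavy-chain genes are near-identical, so that reads may be split between them and these values are uncertain. Tap1 and Tap2, the peptide transporters, were near the limit in B16-F10 Ctrl, with Tap1 at 0.196 and 0.35 CPM against 1.47 and 1.84 and Tap2 at 0.196 and 0.2 against 1.65 and 2.03. The immunoproteasome subunits Psmb8 and Psmb9 were under 1 CPM in all 4 libraries. Of the interferon pathway, Irf1 was 3.76-fold, Irf9 3.24-fold and Isg15 3.3-fold lower in B16-F10, and the inhibitor Socs3 was at 3.19 and 4.15 CPM against 51.6 and 61.9. Rsad2 (viperin) and Ifit2 were higher in B16-F10, Rsad2 at 20.2 and 23.8 CPM against 0.827 and 0.774 (26.9-fold, adjusted p = 1.46e-08), so that the interferon-stimulated genes did not share 1 direction. Cd274, the checkpoint ligand PD-L1, was low in both lines and higher in B16-F10, at 6.96 and 5.85 against 0.827 and 1.64 CPM (5.14-fold, adjusted p = 0.000127). Ulbp1 was 6.12-fold lower, and Raet1d was at 4.31 and 4.6 CPM in B16-F10 Ctrl with no count in YUMM1.7 EV, both ligands of a receptor on natural killer cells.

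Genes of the circadian clock, the subject of the series, differed in both directions. Of 20 clock genes tested, 7 were higher in B16-F10 and 11 lower (5 and 7 at 2-fold or more), with a median log2 fold change of -0.61, and of the 6 repressors 5 were lower and none higher. Arntl (Bmal1) was at 15.6 and 11.1 CPM in B16-F10 Ctrl and 8.73 and 8.9 CPM in YUMM1.7 EV (log2 fold change 0.58 ± 0.21, adjusted p = 0.027), and its partner Clock was 1.25-fold higher, both calls that were lost under some alternatives. Arntl2, a paralogue of Arntl, was lower in B16-F10, at 3.09 and 2.95 CPM against 14.8 and 13.2. Per2, a repressor, was all but undetected in B16-F10 Ctrl, at 0.0981 and 0.05 CPM against 9.46 and 7.45 (ratio of YUMM1.7 to B16-F10 113.8, 95% counting interval 38.95 to 551.9). Per3 was 9.62-fold lower, while Per1 was at 5.93 and 6 CPM in B16-F10 Ctrl, at 4.68 and 6.09 CPM in YUMM1.7 EV, and did not pass the test. Among the nuclear receptors, Rora was 8.98-fold higher in B16-F10 but Rorb was at 0.049 and 0.2 CPM against 35.6 and 33.3. Bhlhe41 (Dec2), an output repressor, was at 260.2 and 234 CPM against 8.63 and 7.25 (30.7-fold higher), and the output factor Dbp was 3.57-fold lower. The labels give no time of harvest on the clock, so that phase and level cannot be told apart for these genes.

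The Hox genes, which mark position along the body axis, differed by cluster. Of 26 tested, 13 were higher in B16-F10 and 10 lower, with a median log2 fold change of 1.03, which was 1.75 without YUMM1.7 EV replicate 1 and 1.62 without replicate 2. The other libraries of the lines gave a median of the opposite sign, -1.19, with 8 higher and 10 lower of 20 tested, among them 5 of cluster A, all 5 higher. The 9 tested genes of cluster A were all higher in B16-F10, including Hoxa5 at 30.4 and 33.1 CPM against 3.95 and 3, Hoxa10 at 18.4 and 15.1 against 0.184 and 0 and Hoxa11 at 6.72 and 6.95 against no count. Of these 9, 7 had at most 3 counts in each YUMM1.7 EV library. Those 7 passed the low-count filter through B16-F10 alone, which fixed their direction. Hoxb9 (19.4 and 18.5 CPM) and Hoxd13 (7.45 and 5.4 CPM) also had no count in YUMM1.7 EV. The 3 tested genes of cluster C, of 9 in the list, were all lower, with Hoxc6 at 1.77 and 0.95 CPM against 30.5 and 31. For 2 of the 3 the filter was passed through YUMM1.7 EV alone, so their direction was fixed too. Within cluster D, Hoxd4 was higher in B16-F10 at 25.7 and 27 against 6.61 and 5.9, and Hoxd8 was lower at 0.0981 and 0.05 against 21.5 and 22.2. Hoxb4 and Hoxb7 were lower, Hoxb7 at 0 and 0.2 against 17.2 and 18. Many Hox genes overlap antisense transcripts, so that their counts are uncertain.

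Imprinted and sex-linked genes set the lines apart as well. Grb10, an imprinted inhibitor of growth factor signalling, was at 0.294 and 0.05 CPM in B16-F10 Ctrl and 135 and 132 CPM in YUMM1.7 EV, and Dlk1 at 2.5 and 0 against 139.6 and 129. Plagl1, an imprinted zinc-finger factor, was the reverse at 377 and 294 against 5.14 and 3.77 (74.1-fold higher). Of 24 imprinted genes 12 were tested, with 6 higher and 4 lower and a median log2 fold change of 0.20. The B16-F10 Ctrl libraries differed from each other at several imprinted genes that are high in embryonic tissue. Meg3 was at 6.91 and 0.2 CPM and Nnat at 1.03 and 0 CPM in replicates 1 and 2, with no count of either in YUMM1.7 EV, and neither gene entered the test. The Y-linked genes Ddx3y, Uty and Kdm5d were at 54.1 and 50.4, 18.6 and 15.3 and 14 and 16.3 CPM in YUMM1.7 EV and at 0.392 and 0.2, 0.147 and 0.05 and 1.32 and 0.65 CPM in B16-F10 Ctrl. Eif2s3y, another gene of the Y chromosome, was at 0 CPM in B16-F10 Ctrl and 0.0918 and 0 CPM in YUMM1.7 EV, unlike YUMM2.1 EV with 13.1 and 13 CPM. Xist, which marks an inactive X chromosome, was at 1.32 and 0.2 CPM in B16-F10 Ctrl and 0 and 0.0967 CPM in YUMM1.7 EV.

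Differences were spread unevenly over the genome. The median log2 fold change of B16-F10 Ctrl over YUMM1.7 EV was 0.52 over the 794 genes tested on chromosome 6 and 0.37 over 588 on chromosome 12. It was -0.59 over 455 genes on chromosome 19, -0.49 over 447 on the X chromosome and -0.36 over 448 on chromosome 14. On the other autosomes it lay between -0.166 and 0.145. On chromosome 6, 431 genes were called higher and 137 lower, and on chromosome 19, 89 higher and 256 lower. The other libraries of the same lines gave 0.67 on chromosome 6, -0.56 on chromosome 19, -0.38 on chromosome 14 and -0.36 on the X chromosome. On chromosome 12 they gave 0.07, and on chromosome 18 they gave -0.44 where the main comparison had -0.04. In windows of 10 Mb with at least 20 genes, chosen for naming after their values were seen, the highest medians were 1.14 at 20 to 30 Mb of chromosome 12 and 1.06 at 50 to 60 Mb of chromosome 6, where the Hoxa cluster lies. The window of Mitf, at 90 to 100 Mb of chromosome 6, had a median of 0.98 over 46 genes, against a log2 fold change of 5.99 for Mitf itself. The lowest were -1.25 at 130 to 140 Mb and -1.08 at 150 to 160 Mb of the X chromosome, followed by -1.02 over 181 genes in the first 10 Mb of chromosome 19. No DNA copy number was measured here, and its part in these medians was not tested.

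**Figure D4:**
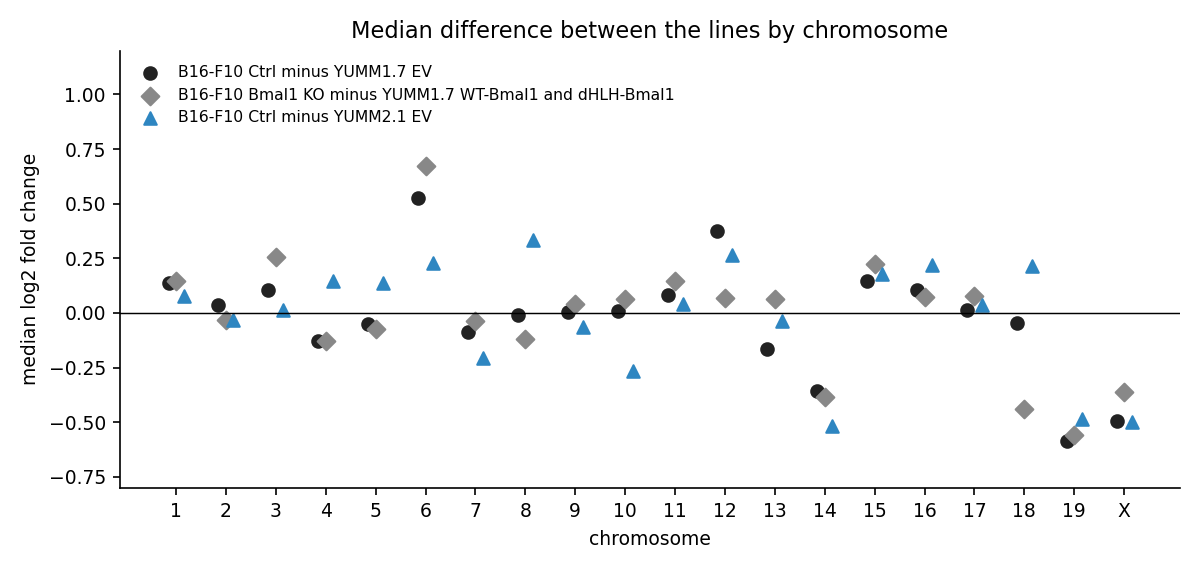
Median log2 fold change per chromosome over the genes tested, for B16-F10 Ctrl against YUMM1.7 EV (black circles), the other libraries of the same lines (grey diamonds) and B16-F10 Ctrl against YUMM2.1 EV (blue triangles). Chromosome 6 lies above 0 and chromosomes 14, 19 and X lie below it in all 3, while on chromosomes 12 and 18 the black and grey points lie apart.

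Many genes were not detected in 1 of the lines. Among the genes called, 683 had at least 10 counts in each B16-F10 Ctrl library and at most 3 in each YUMM1.7 EV library (4.58% of genes tested), 494 of them protein-coding. The reverse held for 534 genes (3.58%), 428 of them protein-coding. No count at all was found in the other line for 353 of the 683 and 270 of the 534. Ranked by level, the protein-coding genes found in B16-F10 only were led by Dct, Tyrp1, Mlana, Syt4, Slc24a5, Sox11, Slc45a2, Chchd10, Rab38 and Arfgef3. Of these 10, 6 belong to the pigment list. Syt4 (synaptotagmin 4), a vesicle protein of neurons, was at 921 and 877 CPM, Sox11, a neural transcription factor, at 748 and 698, and the mitochondrial protein gene Chchd10 at 492 and 518, all without a count in YUMM1.7 EV. Those found in YUMM1.7 only were led by Crabp1, Cavin3, Prkcb, Sema5a, Col6a3, Grem1, Lpar1, Gas1, Amigo2 and Bmp2. Crabp1 (cellular retinoic acid binding protein 1) was at 2355 and 2323 CPM with 2 counts in B16-F10 Ctrl altogether. Prkcb (protein kinase C beta) was at 376 and 374 CPM, Lpar1, a lysophosphatidic acid receptor, at 253 and 259 and Cavin3, a coat protein of caveolae, at 443 and 435. Bmp2 stood at 206 and 213 CPM and its antagonist Grem1 at 265 and 249 CPM, neither with a count in B16-F10 Ctrl.

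**Figure D5:**
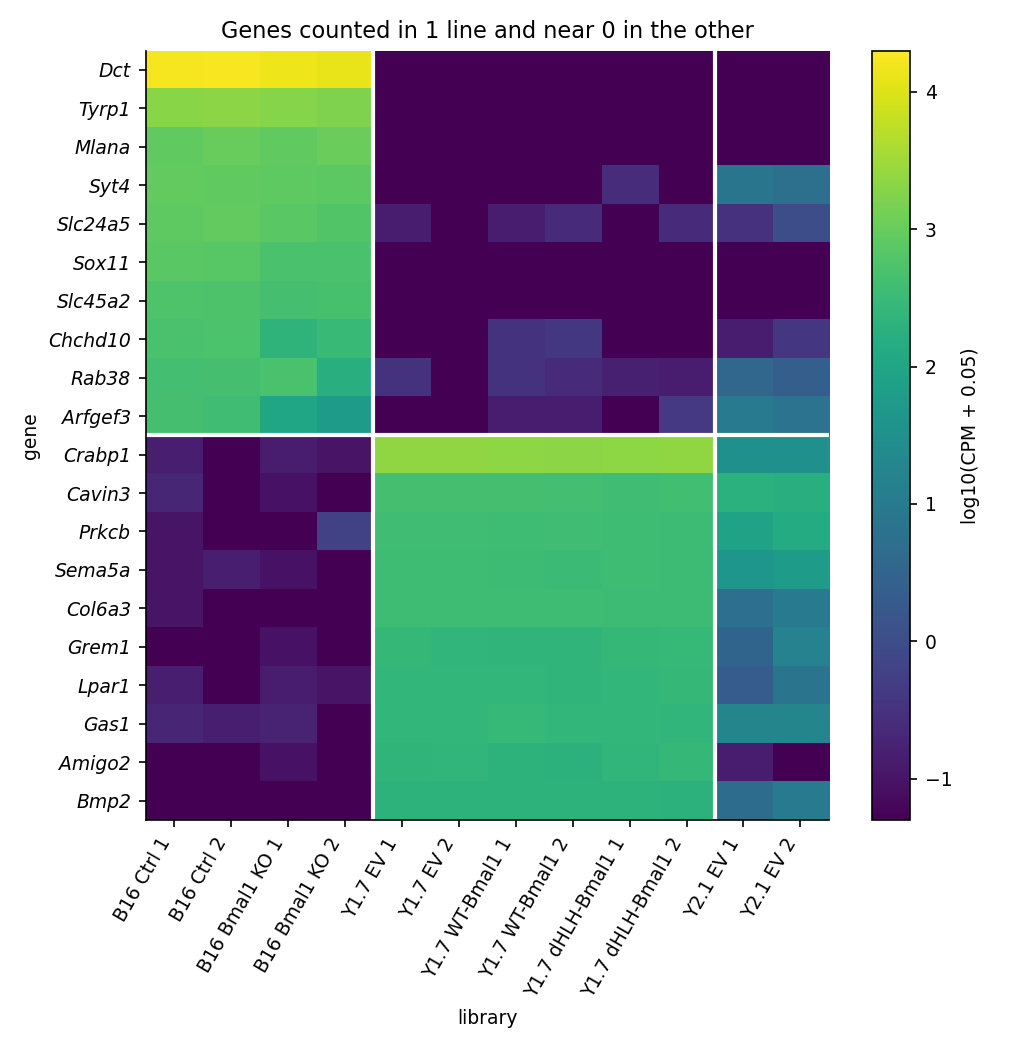
Level of the 10 most abundant protein-coding genes found in B16-F10 Ctrl only (top rows) and in YUMM1.7 EV only (bottom rows), as log10 of CPM plus 0.05, in 12 libraries. The 2 B16-F10 Bmal1 KO and 4 other YUMM1.7 libraries follow their own line, and YUMM2.1 EV is at 0 for Dct, Tyrp1, Mlana, Sox11 and Slc45a2 and lies between the lines for most of the YUMM1.7 genes.

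Of the genes with more than 3 counts in all 4 libraries, the widest gaps in favour of B16-F10, at 50 CPM or more, were Epha3, Apoe, S100b, Sox10, Rasgrp3, Gm11127, Sox6, Scn8a, Fam53b and Sgip1. Epha3, an ephrin receptor, was at 177 and 158 CPM against 0.367 and 0.387 (log2 fold change 8.75 ± 0.18). Apoe (apolipoprotein E) was at 694 and 803 against 2.94 and 1.64, and S100b, a marker of melanocytes and Schwann cells, at 219 and 264 against 0.735 and 0.774. The Schwann cell marker Mbp (87.9 and 88.4 against 1.01 and 0.58 CPM) was higher in B16-F10 too, and the 6 markers of that list summed to 401 and 455 CPM against 50.2 and 42.9, while Egr2 of the same list was at or near 0 in both lines. All 4 of these markers that were tested were higher in B16-F10 Ctrl. In the other libraries of the lines 3 were higher and 1 lower, and against YUMM2.1 EV 1 was higher and 3 lower. Gm11127 is a class I-like gene close to others of its family, so that its counts are uncertain. On the YUMM1.7 side the widest gaps were Aqp1, Bgn, S100a4, Col18a1, Col3a1, S100a6, Olfml2b, Hist1h2ao, Dkk2 and Spp1. Aqp1, a water channel, was at 0.588 and 0.2 CPM against 1286 and 1198 (log2 fold change -11.60 ± 0.17, adjusted p = 5.05e-13), and Dkk2, a Wnt modulator, at 0.834 and 0.2 against 309 and 321. Hist1h2ao is 1 of many near-identical histone genes, and its counts are uncertain.

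Among the most abundant transcripts, some were shared. Gm42418, which overlaps ribosomal RNA and is uncertain for that reason, led in both lines, and Lrrc17, Actb, Malat1 and Eef1a1 stood among the top 10 of each. B16-F10 Ctrl alone had Dct and Pmel there, together with Sirt5, Noct and Hsp90aa1. Sirt5, a mitochondrial desuccinylase, was at 5897 and 5816 CPM against 66.4 and 74.1 (82.5-fold, adjusted p = 5.05e-13), and Noct (nocturnin), a rhythmic enzyme in many tissues, at 4268 and 4438 against 188 and 179 (23.4-fold). YUMM1.7 EV had Hsp90ab1, Tpt1, Vim, Rpl27a and Rplp1 there, of which the last 2 and Eef1a1 belong to the machinery of translation. Counts on the genes of ribosomal proteins were 6.31% and 7.23% of the total in B16-F10 Ctrl and 12.4% and 12.2% in YUMM1.7 EV.

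The 2 lines were also compared in the libraries that the main comparison did not use. Between B16-F10 Bmal1 KO and the mean of YUMM1.7 WT-Bmal1 and dHLH-Bmal1, 7121 of 14525 genes were called (49.0%), 3561 higher in B16-F10 and 3560 lower. Of the 9562 genes called in the main comparison, 63.4% were called there in the same direction, which is 85.2% of the 7121. The number called in both sets was 6119, of which 6064 had the same direction and 55 the opposite. Of the 683 genes found in B16-F10 Ctrl only, 399 met the same rule in the other libraries, and so did 376 of the 534 found in YUMM1.7 EV only. Of the pigment genes, 34 were called in both sets in the same direction and none in opposite ones, and of the undifferentiated genes 29 and 1. The 1 in opposite directions was Cdh2, at 67.6 and 52.9 CPM in B16-F10 Bmal1 KO, below 152 and 149 in YUMM1.7 WT-Bmal1. Dct was at 14245 and 12688 CPM in B16-F10 Bmal1 KO and had no count in the 4 YUMM1.7 libraries. Axl was at 1.48 and 0.493 CPM in B16-F10 Bmal1 KO, 637 and 641 in WT-Bmal1 and 751 and 771 in dHLH-Bmal1. Of the antigen presentation and interferon genes, 24 were called in both sets, all in the same direction, and 21 of 46 tested were lower in the other libraries, with a median log2 fold change of -0.56. The median of the peptide loading genes was -1.75 in the main comparison and -0.53 here, and that of the interferon-stimulated genes -1.70 and -0.54. For the class I heavy chains and B2m the medians were -0.26 and -0.02. Of these 5 genes, 3 were lower and 1 higher in the main comparison, and 1 was lower and 1 higher here. Of the imprinted genes, 7 were called in both sets in the same direction, and their median was 0.20 in the main comparison and -0.10 here. In these libraries, too, a vector was on the YUMM1.7 side only. The state of Bmal1 differed as well, knocked out in B16-F10 and overexpressed in YUMM1.7, so that it cannot be told apart from line here. Arntl, the gene edited in the KO clone, was still counted there at 13.8 and 11.8 CPM, and reads at its 3′ end do not check an edit elsewhere in the gene.

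YUMM2.1 EV, the other line with an empty vector, shared some of these differences and not others. Against YUMM2.1 EV, 7731 of 14995 genes were called (51.6%), 3546 higher in B16-F10 Ctrl and 4185 lower, and 8097 without YUMM2.1 EV replicate 2. The comparison shares its B16-F10 libraries with the main one, so that values are set side by side only. Of the 683 genes found in B16-F10 Ctrl and not in YUMM1.7 EV, 141 had at least 10 counts in both YUMM2.1 EV libraries and 360 had at most 3 in both (184 and 397 by replicate 1 alone). Of the 534 found in YUMM1.7 EV only, 264 had at least 10 counts in both YUMM2.1 EV libraries and 124 at most 3 (284 and 170 by replicate 1 alone). Sox10 stood at 525 and 505 CPM in YUMM2.1 EV, S100b at 227 and 268 CPM and Sox6 at 181 and 157 CPM, levels of the order found in B16-F10 Ctrl. Mitf, by contrast, was at 15.1 and 14.9 CPM in YUMM2.1 EV, close to YUMM1.7 EV, and Dct, Tyrp1, Mlana and Slc45a2 had no count there. Ngfr, low in both main lines, was at 406 and 401 CPM. Col1a2, abundant in YUMM1.7 EV, was at 1.56 and 4.28 CPM, and Cxcl12, Loxl1 and Grb10 were likewise near 0 in YUMM2.1 EV, with Cxcl12 at 0.174 and 0 CPM, Loxl1 at 0.348 and 0.338 CPM and no count of Grb10. Axl (399.9 and 594 CPM), Prrx1 (229 and 214 CPM), S100a4 (2947 and 3837 CPM) and Ccnd1 (5546 and 4619 CPM) were high in both YUMM lines. Both YUMM lines carried an empty vector by their labels, and its part in their differences from B16-F10 was not tested.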

How the data were processed

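RNA of cultured cells was made into 3′ end libraries and sequenced as single reads of 75 bases. The authors aligned reads to mm10 and counted them per Ensembl gene with RSEM (the labels name version 1.2.3, the methods another), and the deposited table holds whole-number counts of 51789 genes, with no normalization. The Ensembl release, the strand setting and how multiply aligned reads were shared are not given in the sources used here. Columns of no known sample numbered 0, and 51596 genes (99.63%) were matched to a symbol.

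Groups were taken from the labels. Genes with too few counts for the group size were removed with filterByExpr, libraries were scaled by TMM, and B16-F10 Ctrl was tested against YUMM1.7 EV with the quasi-likelihood test of edgeR 4.0.16 in R 4.3.3, on these 4 libraries alone and with Benjamini-Hochberg adjustment over all genes tested. A gene was called at an adjusted p under 0.05. The SE of a log2 fold change was its size over the square root of the quasi-likelihood F. At a few counts this SE can fall below the counting error. The other libraries of both lines were tested in a fit of their own, and B16-F10 Ctrl against YUMM2.1 EV in a fit that also held YUMM1.7 EV. The CPM values put 12 libraries on 1 TMM scale. A fold against a line without counts was computed against 3 counts per library, and the intervals of ratios cover counting error only. A gene was found in 1 line only when it was called, had at least 10 counts in each of its libraries and at most 3 in each of the other line.

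The lines, gene lists and tests were chosen with earlier results of these data known. Named were members of the lists, the 10 protein-coding genes per line with the highest level among those found in that line only, the 10 widest differences per direction among protein-coding genes with more than 3 counts in every library and a level of at least 50 CPM, and the 10 most abundant genes of each line. Alternatives were DESeq2 1.42.0 (Wald test, and its size factors in edgeR), other filters, larger fits, a 2-fold minimum, a replicate block and each library left out. The scripts were tested on simulated counts, where the share of false calls exceeded the nominal rate. Promoters are from RefSeq. Genotypes at the DNA level were not analysed here. Some genes of the lists, and what the genotypes say of them, are not reported here.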

Additional observations from a re-analysis of the deposited data

How the results depend on the processing

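The count of 9562 genes called lay between 7440 (1 fit of the 10 libraries of both lines) and 9966 (no filter on low counts) under the other tests, filters and fits, was 8287 with the Wald test of DESeq2 and 5031 with a 2-fold minimum, which is stricter by construction. Leaving out 1 library gave 8158 to 9612 calls, the lone library of a line being assumed to vary like the others. Genes found in 1 line only numbered 1217, between 1042 and 1323 under other limits, and 1258 to 1305 with 1 library left out. Same-numbered replicates did not deviate together (correlation -0.03), so the numbers pair nothing, and the replicate block gave 9131 calls, 6801 in the other libraries of the lines and 7323 against YUMM2.1 EV. Leaving out 1 library gave 5521 to 10035 calls in the other libraries and 5523 to 8670 against YUMM2.1 EV. These 2 sets of alternatives, other than leaving out YUMM2.1 EV replicate 2, and the fit of the main comparison with YUMM2.1 EV (7841 calls) were chosen after seeing the data. The median of chromosome Y was -1.87 over 9 genes and -2.91 over the 8 with a mean of at least 10 counts. Among the gene lists, the median of the matrix genes was -2.73 and that of the secreted signals -2.50 with no filter on low counts (-2.65 with 1 fit of all 40 libraries), and that of the imprinted genes 1.19 with no filter. In the fit of the 10 libraries of both lines 11 of the genes commonly altered in melanoma were called, against 19. Of 382 genes followed through 4543 alternative values, 4357 kept their direction and their side of the threshold, 172 lost and 13 gained the call, and 1 reversed, the ribosomal RNA-associated Gm42418, with a log2 fold change of -0.10 that lay between -0.35 and 0.12 with 1 library left out (0.12 without B16-F10 Ctrl replicate 2). The cause of these changes was not tested. With 2 libraries a group and fewer counts in YUMM1.7 EV, differences at a few counts are the least certain.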

Other observations

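Of the 3594 genes called at 2-fold or more both between B16-F10 Ctrl and YUMM1.7 EV and between B16-F10 Bmal1 KO and the other YUMM1.7 libraries, 8 had opposite directions, and they are named here after their values were seen. Stc1 (stanniocalcin 1, a secreted glycoprotein) was at 27.9 and 24.9 CPM in B16-F10 Ctrl and 0.38 and 0.69 in B16-F10 Bmal1 KO, and at 2.66 and 3.1 in YUMM1.7 EV, 2.04 and 2.9 in WT-Bmal1 and 2.75 and 1.13 in dHLH-Bmal1. Smoc1, a matrix glycoprotein, was at 1.91 and 2.5 CPM in B16-F10 Ctrl, 0.0844 and 0 in B16-F10 Bmal1 KO, 0.551 and 0.871 in YUMM1.7 EV, 1.11 and 1.54 in WT-Bmal1 and 1.27 and 1.41 in dHLH-Bmal1. Xylt1, which starts the sugar chains of proteoglycans, was at 17.6 and 11.7 CPM, 3 and 1.28, 6.43 and 4.45, 4.55 and 4.71 and 5.29 and 6.19 in the same order of groups. The others were Chd5, P2ry1, Gsta4, Gm11196 and Gm6983.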
